A study of Homo sapiens with 12 samples.

Results

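The genes described here are a set of 39 lysosome and autophagy genes, chosen by symbol from the deposited count table of 44659 genes. The choice was made with earlier results of these data known. RNA was sequenced from A375 cells, a human melanoma line that carries an activated BRAF kinase, in 12 libraries. Control cells (CC) were grown for 72 h with DMSO, the solvent of the drugs. MAPKi-treated cells (TC) were grown for 72 h with 500 nM vemurafenib, an inhibitor of BRAF, and 500 nM cobimetinib, an inhibitor of MEK. Persister cells (PC) received the same 72 h of MAPKi and then 2 days without drug, and recovered cells (RC) received it and then 9 days without drug. Each group had 3 libraries of cytoplasmic RNA depleted of ribosomal RNA. CC cells were harvested with TC at the end of the 72 h, so in PC and RC the earlier drug exposure and the longer time in culture cannot be told apart. All cells belonged to 1 line, and no source used here states that the replicates were started separately, so p-values measure the spread between these libraries.

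Lysosomes are acidic organelles in which hydrolases break down proteins, sugar chains and lipids, and from which transporters and carriers return the products to the cell. Autophagy delivers cytoplasmic material to them inside membrane-bound autophagosomes. Many genes of these pathways carry in their promoters a CLEAR element, a stretch around the letters CACGTG that is bound by TFEB and TFE3 and by their relative MITF, the lineage factor of melanocytes. In pigment cells the melanosome is itself a lysosome-related organelle.

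Total counts ran from 37773389 to 55567097 per library. A gene was tested where its mean count, scaled to library size, reached 10, which held for 15916 genes and for 35 of the 39 members. Levels are given in CPM, the counts of a gene per 1000000 counts of the TMM-scaled library, and a member is called higher or lower at a Benjamini-Hochberg adjusted p under 0.05 in edgeR's quasi-likelihood test over all tested genes. Differences are given as log2 fold changes ± SE. As a check of the labels, SPRY4, a feedback inhibitor of the MAPK pathway, was at 444 ± 241 CPM in CC, 1.65 ± 0.174 in TC, 0.812 ± 0.128 in PC and 262 ± 20.1 in RC (mean ± SD, n = 3). DUSP6 (means 156, 3.94, 5.24 and 135 CPM) and ETV4 (235, 2.61, 1.73 and 232 CPM) were likewise low in TC and PC and high in CC and RC. CC replicate 3 stood apart for DUSP6 (77.6, 94.4 and 297 CPM in the 3 CC libraries) and SPRY4 (342, 270 and 720), but not for ETV4 (236, 230 and 238). Of the melanocyte markers, SOX10, DCT, PMEL, MITF and S100B were clearly present, whereas MLANA stayed at means of at most 1.58 CPM and TYR at means of at most 4.87 CPM. The summed CPM of the 7 melanocyte markers moved with the groups, from 1661 to 1889 in CC, 7076 to 10285 in TC, 3484 to 5090 in PC and 1526 to 1592 in RC, and its part in the results below was not tested. DCT made up most of the rise of that sum in TC (means 407 CPM in CC and 6452 in TC), whereas S100B fell in TC (means 264 and 140 CPM, log2 fold change -0.91, adjusted p = 2.2e-06) and MITF was not called there. The summed CPM of 9 markers of other cell types lay between 2.44 and 6.09 over all libraries, with KRT5 and CD3E at or near 0. Of the 3 tested, KRT14 was called higher in TC and PC (means 0.0151 CPM in CC, 0.396 in TC, 2.29 in PC and 0.0164 in RC), and PTPRC (0.555, 0.0421, 0.14 and 0.606) and VWF (4.11, 2.07, 1.72 and 3.36) were called lower in both. In RNA from whole cultures, fewer cells that express a gene and less RNA per cell cannot be told apart.

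The promoters of several members hold the CLEAR letters, which is why they are shown here before the values. RefSeq promoters (GRCh38.p14, 250 bases before to 50 after the annotated start) were found for 28 of the 39 members. The palindrome TCACGTGA, searched on both strands, was in 5 of these 28 (17.9%), namely LAMP1, CLN3, GAA, MCOLN1 and CTSA, in 1.18% of 27305 genes with a promoter and in 2.14% of the 11587 of these that were tested. It was also in 15 of 161 other genes of the same pathways (9.32%). The shorter CACGTG, which every TCACGTGA contains, was in 9 of 28 (32.1%), against 8.77% of all genes with a promoter and 12.4% of those tested. The variant TCATGTGA was in the promoter of 1 member, TPP1 (3.57%, against 1.24% of all). Below, 100 bases before and 50 after the start of 5 members are written 5′ to 3′ along the gene's own strand, with these letters in capitals. They lie at chr19:7522524-7522673 on the plus strand for MCOLN1, chr13:113297139-113297288 on the plus strand for LAMP1, chr20:45891235-45891384 on the plus strand for CTSA, chr11:6619373-6619522 on the minus strand for TPP1 and chr11:1763878-1764027 on the minus strand for CTSD.
MCOLN1: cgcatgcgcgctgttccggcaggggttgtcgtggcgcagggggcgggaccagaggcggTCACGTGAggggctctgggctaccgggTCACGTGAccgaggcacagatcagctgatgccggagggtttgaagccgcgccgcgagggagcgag
LAMP1: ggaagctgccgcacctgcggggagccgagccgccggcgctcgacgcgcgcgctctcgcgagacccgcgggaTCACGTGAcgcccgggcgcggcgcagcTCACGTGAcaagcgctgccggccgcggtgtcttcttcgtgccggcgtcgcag
CTSA: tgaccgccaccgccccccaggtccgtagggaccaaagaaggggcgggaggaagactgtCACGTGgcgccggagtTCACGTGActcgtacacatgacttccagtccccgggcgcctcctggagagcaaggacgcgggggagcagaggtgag
TPP1: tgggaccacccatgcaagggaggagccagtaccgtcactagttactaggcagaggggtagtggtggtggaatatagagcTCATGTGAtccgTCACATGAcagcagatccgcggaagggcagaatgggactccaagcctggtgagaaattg
CTSD: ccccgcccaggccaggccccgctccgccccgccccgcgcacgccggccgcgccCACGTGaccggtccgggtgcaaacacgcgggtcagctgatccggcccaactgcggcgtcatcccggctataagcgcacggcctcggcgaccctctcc

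In these windows MCOLN1 and LAMP1 each hold TCACGTGA at 2 places, CTSA holds it at 1 place beside a separate CACGTG, TPP1 holds TCATGTGA at 2 places on opposite strands, and CTSD holds only the inner CACGTG. A match of letters is a description and not a binding site. Of the 5 members with TCACGTGA, LAMP1, CLN3, MCOLN1 and CTSA were called higher in TC than in CC (log2 fold changes 0.66, 0.30, 0.89 and 1.44), and GAA had at most 2 counts in any library. Of all tested members 62.9% were called higher there, beside 33.2% of all tested genes. TPP1 and CTSD rose as well, and so did members without a match in their window, such as GABARAPL1 and ULK1. All 5 members whose bases are written out were higher in TC, and no window of a member that fell is shown. Whether the letters go with a rise was not tested.

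During MAPKi, more of the members rose than fell. Because the members were chosen with earlier results known, the shares over all tested genes are set beside them as a description only. In TC, 22 of the 35 tested members were higher than in CC, where 33.2% of all tested genes were higher, and 7 were lower, where 34.7% of all were lower. With a change required to exceed 1.5-fold (glmTreat, adjusted p of at most 0.05), 12 members were higher and 1 was lower, beside 16.1% and 19.3% of all tested genes. The median log2 fold change was 0.58 over the members and -0.02 over all tested genes. The rises were largest for the cathepsin D gene CTSD, the prosaposin gene PSAP and the autophagosome gene GABARAPL1. The only member lower by more than 1.5-fold was NPC1, the cholesterol exporter.

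**Figure D1:**
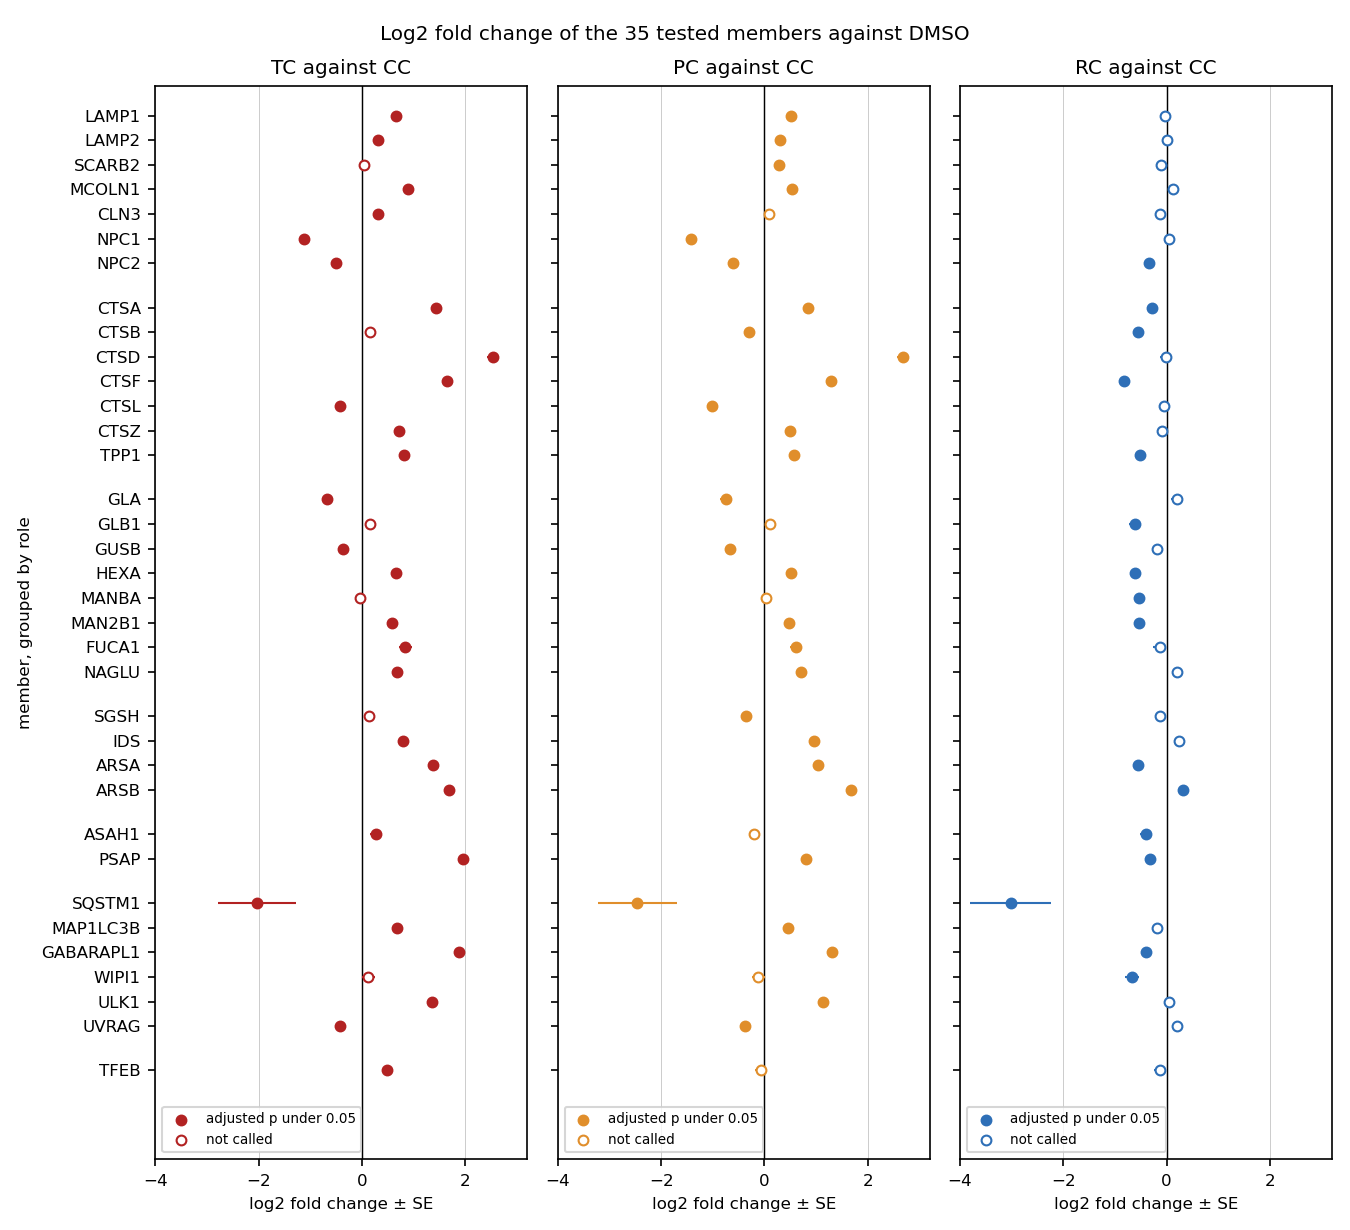
Log2 fold change against CC, with its standard error, of the 35 tested members in TC, PC and RC (n = 3 libraries per group). Members are grouped from the top as membrane and lipid export, proteases, glycosidases, sulfatases, sphingolipid breakdown, autophagy and transcription factors, and filled points have an adjusted p under 0.05. Most points lie right of 0 in TC and PC and at or left of 0 in RC, and SQSTM1 has by far the widest error bars.

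The members also took a larger share of the library during MAPKi. Their counts made up 0.734%, 0.711% and 0.642% of the CC libraries and 1.54%, 1.63% and 1.75% of the TC libraries. In PC the share was 1.13% in each library, and in RC it was 0.624%, 0.587% and 0.582%. No value of one group lay within the range of another, although an exact permutation test on 3 against 3 libraries cannot give a two-sided p below 0.1. PSAP alone made up 0.218% ± 0.0182 of the CC libraries, 0.836% ± 0.0709 in TC, 0.384% ± 0.00724 in PC and 0.177% ± 0.00723 in RC (mean ± SD, n = 3). Without PSAP, the other 38 members went from 0.478% ± 0.0302 in CC to 0.804% ± 0.0357 in TC and 0.744% ± 0.00934 in PC, and were at 0.42% ± 0.0156 in RC.

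**Figure D2:**
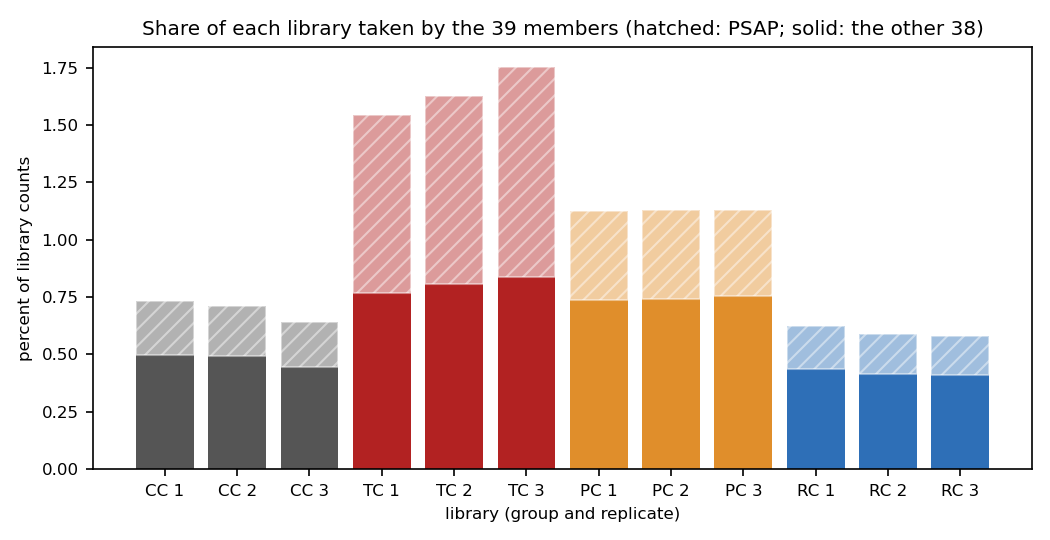
Percent of the counts of each library that fell on the 39 members, split into PSAP (hatched) and the other 38 members (solid). The 3 TC libraries are the tallest, between 1.54% and 1.75%, and the 3 RC libraries the shortest.

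Of 7 tested membrane and lipid export members, 4 (57.1%) were higher and 2 (28.6%) lower in TC, beside 33.2% and 34.7% of all tested genes. The 2 lower ones were NPC1 and NPC2. LAMP1 and LAMP2 encode the abundant glycoproteins of the lysosomal membrane, and SCARB2 encodes a membrane protein that carries glucocerebrosidase to lysosomes. LAMP1 was at 427, 421 and 377 CPM in the 3 CC libraries, 568, 651 and 712 in TC, 555, 598 and 603 in PC, with RC at 433, 391.9 and 377. All TC and PC libraries lay above all CC libraries, and RC overlapped with CC. The LAMP1 log2 fold change was 0.66 ± 0.09 (adjusted p = 3.1e-05) in TC, 0.52 ± 0.09 (adjusted p = 0.00020) in PC and -0.03 ± 0.09 (adjusted p = 0.84) in RC against CC. For LAMP2 the log2 fold change was 0.30 ± 0.08 (adjusted p = 0.0056) in TC and 0.29 ± 0.08 (adjusted p = 0.0067) in PC. SCARB2 had a log2 fold change of 0.04 ± 0.07 (adjusted p = 0.66) in TC, which was not called, and of 0.29 ± 0.07 (adjusted p = 0.0026) in PC. From TC to PC it rose by 0.25 ± 0.07 (adjusted p = 0.020) on the log2 scale, the only such rise among the members. That call was lost under 4 of 19 other settings, namely with genes kept from a sum of 2 counts upwards and without TC replicate 1, PC replicate 2 or PC replicate 3, with an adjusted p of up to 0.088.

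MCOLN1 encodes the calcium channel mucolipin of the lysosomal membrane, which acts in lysosomal signalling. MCOLN1 was at 32.8, 31.4 and 32.1 CPM in the 3 CC libraries, 62.9, 57.8 and 57.5 in TC, 47.5, 44.8 and 46.5 in PC, with RC at 37.2, 32.1 and 34.9. The TC libraries were the highest, the PC libraries lay between TC and CC, and RC overlapped with CC. The log2 fold change against CC was 0.89 ± 0.07 (adjusted p = 1.8e-07) in TC, past the 1.5-fold limit, and 0.53 ± 0.07 (adjusted p = 1.7e-05) in PC. CLN3, a lysosomal membrane protein mutated in Batten disease, had a log2 fold change of 0.30 ± 0.08 (adjusted p = 0.0055) in TC.

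NPC1 and NPC2 work in turn to move cholesterol out of the lysosome, and both fell. NPC1 was at 115, 91.7 and 104 CPM in the 3 CC libraries, 41, 48 and 52.6 in TC, 38.1, 39.8 and 37.9 in PC, with RC at 108, 104 and 109. The TC and PC libraries were all below CC, and RC overlapped with CC. NPC1 (chr18:23506184-23586506, minus strand, GENCODE v44, hg38) had a log2 fold change of -1.13 ± 0.10 (adjusted p = 4.9e-07) in TC and -1.42 ± 0.10 (adjusted p = 6.5e-08) in PC, and it rose again from PC to RC by 1.48 ± 0.10 (adjusted p = 4.5e-08) on the same scale. For NPC2, the soluble carrier that hands cholesterol to NPC1, the log2 fold change was -0.51 ± 0.10 (adjusted p = 0.00081) in TC, -0.60 ± 0.10 (adjusted p = 0.00020) in PC and -0.34 ± 0.10 (adjusted p = 0.022) in RC. The NPC2 call in RC was lost on leaving out CC replicate 1 or 2 or RC replicate 2 or 3, with an adjusted p of up to 0.077.

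Among the proteases, 5 of 7 tested members (71.4%) were higher in TC, beside 33.2% of all tested genes, and 1 (14.3%) was lower, beside 34.7%. CTSD encodes the aspartic protease cathepsin D. CTSD was at 300.2, 288 and 268 CPM in the 3 CC libraries, 1394, 1642 and 1940.0 in TC, 1726, 1829.5 and 1965 in PC, with RC at 308, 275 and 264. The TC and PC libraries lay far above CC and overlapped with each other, and RC overlapped with CC. CTSD (chr11:1752752-1764573, minus strand) had the largest change of all members in TC and in PC, a log2 fold change of 2.54 ± 0.11 (adjusted p = 2.1e-09) in TC and 2.69 ± 0.11 (adjusted p = 1.4e-09) in PC, or 5.81-fold and 6.44-fold. Of the bases in its annotated exons, 48% also belong to exons of other GENCODE genes, and the strand setting of the counting was not stated, so reads of those genes cannot be told apart. The same limit applies, with smaller shares, to members such as CTSZ (31.7%), CLN3 (31.1%), WIPI1 (28.1%), SQSTM1 (22.4%), CTSA (21.5%) and MAN2B1 (21.2%).

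CTSA encodes cathepsin A, a carboxypeptidase that also protects beta-galactosidase and neuraminidase in a complex. CTSA was at 319, 295 and 269.6 CPM in the 3 CC libraries, 783, 796 and 813 in TC, 537, 528 and 523 in PC, with RC at 256, 230.1 and 239. TC was highest, PC stood between TC and CC, and RC was below CC in every library. The log2 fold changes against CC were 1.44 ± 0.07 (adjusted p = 3.2e-09) in TC, 0.85 ± 0.07 (adjusted p = 2.6e-07) in PC and -0.29 ± 0.07 (adjusted p = 0.0055) in RC, and from TC to PC it fell by 0.59 ± 0.07 (adjusted p = 6.7e-05) on that scale. CTSF encodes the cysteine protease cathepsin F. CTSF was at 119.9, 97 and 98.3 CPM in the 3 CC libraries, 350.3, 330.3 and 309.8 in TC, 287, 246 and 236 in PC, whereas RC had 64.9, 54.8 and 57.9. It followed the same order with a wider range, since RC fell to well below CC. The log2 fold changes were 1.65 ± 0.11 (adjusted p = 4.2e-08) in TC, 1.29 ± 0.10 (adjusted p = 3.3e-07) in PC and -0.83 ± 0.10 (adjusted p = 0.00013) in RC.

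TPP1 encodes tripeptidyl peptidase, which removes tripeptides from protein ends. TPP1 was at 153, 116 and 128 CPM in the 3 CC libraries, 229, 231 and 236 in TC, 202, 190.1 and 195 in PC, with RC at 99.3, 87.1 and 90.9. Again the TC libraries were above PC, PC above CC, and RC below CC with no overlap. The log2 fold change was 0.81 ± 0.09 (adjusted p = 5.8e-06) in TC, 0.56 ± 0.09 (adjusted p = 0.00012) in PC and -0.52 ± 0.09 (adjusted p = 0.00096) in RC. CTSZ, a carboxypeptidase, had log2 fold changes of 0.71 ± 0.09 (adjusted p = 1.4e-05) in TC, 0.50 ± 0.09 (adjusted p = 0.00025) in PC and -0.09 ± 0.09 (adjusted p = 0.46) in RC.

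The cathepsin B and L genes, which encode broad cysteine proteases, did not follow the others. CTSL was at 171, 196 and 138 CPM in the 3 CC libraries, 118, 128 and 128 in TC, 79.7, 87.4 and 84.2 in PC, with RC at 167, 163 and 157. TC and PC were below CC, PC was the lowest, and RC overlapped with CC. The CTSL log2 fold change was -0.43 ± 0.10 (adjusted p = 0.0026) in TC and -1.005 ± 0.10 (adjusted p = 2.9e-06) in PC, past the 1.5-fold limit, and it fell by 0.57 ± 0.10 (adjusted p = 0.0018) from TC to PC. CTSB had a log2 fold change of 0.15 ± 0.07 (adjusted p = 0.082) in TC, which was not called, and was lower in PC, at -0.29 ± 0.07 (adjusted p = 0.0026), and in RC, at -0.56 ± 0.07 (adjusted p = 0.00012).

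**Figure D3:**
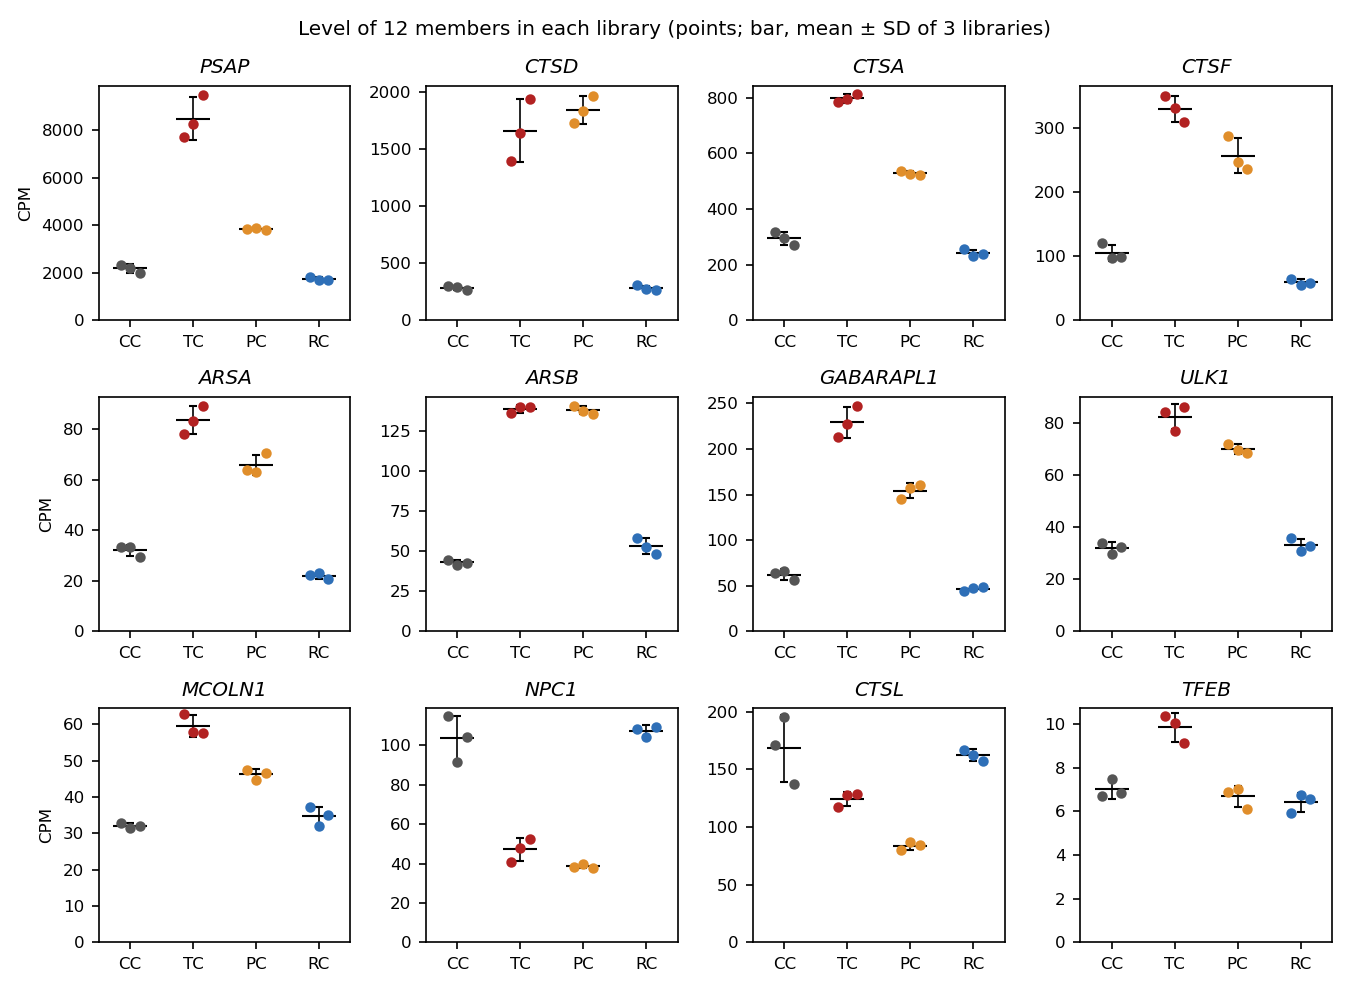
CPM of 12 members in each library (points), with the mean and SD of the 3 libraries of a group, on linear axes that start at 0. PSAP, CTSA, CTSF, ARSA, GABARAPL1, ULK1, MCOLN1 and TFEB are highest in TC, CTSD and ARSB are about equal in TC and PC, and NPC1 and CTSL are lowest in PC.

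Glycosidases trim sugars from glycoproteins and glycolipids. Of 8 tested members, 4 (50%) were higher and 2 (25%) lower in TC, beside 33.2% and 34.7% of all tested genes. FUCA1 encodes the lysosomal fucosidase. FUCA1 was at 39.6, 45.9 and 31.6 CPM in the 3 CC libraries, 60.9, 70.3 and 77.9 in TC, 56.6, 59 and 62.7 in PC, with RC at 35.3, 36.6 and 34.6. TC and PC lay above CC, and RC overlapped with CC. Its log2 fold change was 0.84 ± 0.12 (adjusted p = 5.7e-05) in TC and 0.61 ± 0.12 (adjusted p = 0.00070) in PC. NAGLU encodes an enzyme of heparan sulfate breakdown. NAGLU was at 104, 108 and 90.1 CPM in the 3 CC libraries, 153, 163 and 162 in TC, 172, 159 and 165 in PC, whereas RC had 125, 112 and 110.4. TC and PC overlapped with each other above CC, and RC lay between them and CC. The log2 fold change was 0.67 ± 0.08 (adjusted p = 7.6e-06) in TC and 0.71 ± 0.08 (adjusted p = 3.8e-06) in PC, where it passed the 1.5-fold limit.

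HEXA, a subunit of beta-hexosaminidase, had log2 fold changes of 0.66 ± 0.06 (adjusted p = 1.1e-06) in TC, 0.52 ± 0.06 (adjusted p = 9.6e-06) in PC and -0.62 ± 0.06 (adjusted p = 3.7e-05) in RC, so it ended below CC. MAN2B1, the lysosomal alpha-mannosidase, had log2 fold changes of 0.58 ± 0.07 (adjusted p = 1.3e-05), 0.47 ± 0.07 (adjusted p = 7.3e-05) and -0.54 ± 0.07 (adjusted p = 0.00016) in the same groups. GLB1, the beta-galactosidase, and MANBA, the beta-mannosidase, were not called in TC or PC and were lower in RC, with log2 fold changes of -0.62 ± 0.10 (adjusted p = 0.00050) and -0.54 ± 0.09 (adjusted p = 0.00071). GLA, the alpha-galactosidase that is deficient in Fabry disease, went the other way, with log2 fold changes of -0.67 ± 0.11 (adjusted p = 0.00021) in TC, -0.74 ± 0.11 (adjusted p = 9.1e-05) in PC and 0.20 ± 0.11 (adjusted p = 0.17) in RC. GUSB, the beta-glucuronidase that is often used as a reference gene, was also lower, with log2 fold changes of -0.37 ± 0.08 (adjusted p = 0.0012) in TC and -0.67 ± 0.08 (adjusted p = 1.0e-05) in PC.

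Sulfatases remove sulfate groups from glycosaminoglycans and sulfolipids. Of the 4, ARSA, ARSB and IDS were higher beyond 1.5-fold in TC and in PC, beside 16.1% and 17.2% of all tested genes. ARSA, arylsulfatase A, breaks down sulfatide. ARSA was at 33.6, 33.2 and 29.5 CPM in the 3 CC libraries, 78, 83.2 and 89.3 in TC, 64, 62.9 and 70.4 in PC, with RC at 22.2, 22.9 and 20.7. TC was above PC, PC above CC and RC below CC, without overlap. The log2 fold changes against CC were 1.38 ± 0.08 (adjusted p = 1.4e-08) in TC, 1.04 ± 0.08 (adjusted p = 1.5e-07) in PC and -0.55 ± 0.08 (adjusted p = 0.00027) in RC. ARSB, arylsulfatase B, acts on dermatan and chondroitin sulfate. ARSB was at 44.4, 41.6 and 42.7 CPM in the 3 CC libraries, 136, 139.8 and 139.9 in TC, 141, 137 and 135 in PC, whereas RC had 58.4, 52.7 and 48.2. TC and PC overlapped at the high level, and RC stayed just above CC in every library. The log2 fold change was 1.69 ± 0.07 (adjusted p = 1.1e-09) in TC, 1.68 ± 0.07 (adjusted p = 1.1e-09) in PC and 0.31 ± 0.07 (adjusted p = 0.0041) in RC.

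IDS encodes iduronate sulfatase, which acts on heparan and dermatan sulfate. IDS was at 76.1, 62.8 and 79.2 CPM in the 3 CC libraries, 118, 123 and 135 in TC, 133, 139.6 and 151 in PC, with RC at 86.2, 87 and 83.4. The TC, PC and RC libraries all lay above CC, those of RC by a small margin. IDS had a log2 fold change of 0.78 ± 0.09 (adjusted p = 6.2e-06) in TC, 0.96 ± 0.09 (adjusted p = 1.0e-06) in PC and 0.23 ± 0.09 (adjusted p = 0.053) in RC, which was not called, but 75.9% of the bases in its annotated exons are shared with other genes. SGSH, the heparan sulfamidase, had a log2 fold change of 0.12 ± 0.09 (adjusted p = 0.27) in TC, which was not called, and of -0.35 ± 0.10 (adjusted p = 0.0059) in PC.

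For sphingolipid breakdown, PSAP encodes prosaposin, which is cut into the saposins that present lipids to their hydrolases. PSAP was at 2351, 2218 and 2003 CPM in the 3 CC libraries, 7704, 8265 and 9477 in TC, 3865, 3875 and 3798 in PC, with RC at 1825, 1709 and 1689. TC was far above all other groups, PC stayed above CC, and RC was below CC, without overlap. PSAP (chr10:71816298-71851251, minus strand) had a log2 fold change of 1.95 ± 0.08 (adjusted p = 1.2e-09) in TC and 0.81 ± 0.08 (adjusted p = 1.6e-06) in PC, and it was the only member called as lower by more than 1.5-fold in PC than in TC, where it fell by 1.14 ± 0.08 (adjusted p = 2.1e-06) on the log2 scale. ASAH1, the acid ceramidase, had a log2 fold change of 0.27 ± 0.11 (adjusted p = 0.048) in TC with overlapping libraries, a call that was lost under 11 of 19 other settings, and of -0.41 ± 0.11 (adjusted p = 0.013) in RC.

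Autophagy members followed no single course. GABARAPL1 encodes an ATG8-family protein that is attached to autophagosome membranes. GABARAPL1 was at 64.2, 66.6 and 55.9 CPM in the 3 CC libraries, 213, 227 and 247 in TC, 145, 158 and 160.3 in PC, with RC at 44.6, 48 and 48.4. TC was highest, PC lay between TC and CC, and RC was below CC, without overlap. The log2 fold changes were 1.88 ± 0.08 (adjusted p = 1.8e-09) in TC, 1.31 ± 0.08 (adjusted p = 3.2e-08) in PC and -0.41 ± 0.08 (adjusted p = 0.0022) in RC. ULK1 encodes the kinase that starts autophagosome formation. ULK1 was at 34.2, 29.7 and 32.6 CPM in the 3 CC libraries, 84.3, 77.2 and 86.2 in TC, 72.1, 69.9 and 68.5 in PC, whereas RC had 35.8, 31 and 32.9. TC and PC were both above CC, and RC overlapped with CC. Its log2 fold change was 1.36 ± 0.07 (adjusted p = 1.1e-08) in TC and 1.13 ± 0.07 (adjusted p = 5.2e-08) in PC.

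MAP1LC3B, the LC3 protein used as a marker of autophagosomes, had log2 fold changes of 0.68 ± 0.08 (adjusted p = 6.0e-06) in TC and 0.45 ± 0.08 (adjusted p = 0.00018) in PC. UVRAG, a part of a lipid kinase complex of autophagy, was lower, with log2 fold changes of -0.43 ± 0.07 (adjusted p = 0.00022) in TC and -0.38 ± 0.07 (adjusted p = 0.00058) in PC. WIPI1, which binds the lipid that this kinase makes, was not called in TC or PC, with log2 fold changes of 0.12 ± 0.13 (adjusted p = 0.43) and -0.12 ± 0.13 (adjusted p = 0.44), and was lower in RC, at -0.67 ± 0.13 (adjusted p = 0.0017).

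SQSTM1, the cargo receptor p62, had 1 control library that stood apart. In CC its raw counts were 330, 5666 and 677. The TC libraries held 473, 513 and 610, those of PC 303, 409 and 454, and those of RC 204, 368 and 367. The high value belonged to CC replicate 2, and without it the CC libraries overlapped with TC and PC. The log2 fold change against CC was -2.03 ± 0.75 (adjusted p = 0.029) in TC, -2.46 ± 0.76 (adjusted p = 0.012) in PC and -3.02 ± 0.78 (adjusted p = 0.010) in RC. Without CC replicate 2 it was 0.12 in TC (adjusted p = 0.65), -0.30 in PC (adjusted p = 0.25) and -0.86 in RC (adjusted p = 0.010), so the calls in TC and PC rest on that library. The counts of members without it were 21 higher and 6 lower in TC, 20 higher and 8 lower in PC, and 3 higher and 15 lower in RC. The table also lists a numbered copy of SQSTM1, which held 748 to 1560 counts per library and 1009 in CC replicate 2. With the copy added to the gene, the log2 fold change was -0.73 in TC (adjusted p = 0.16), -1.26 in PC (adjusted p = 0.026) and -1.39 in RC (adjusted p = 0.031). CC replicate 2 still stood apart in that sum, with 36.7, 151 and 31.5 CPM in CC beside 32.7, 31.0 and 27.8 in PC. Whether these calls hold without that library was not tested.

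**Figure D4:**
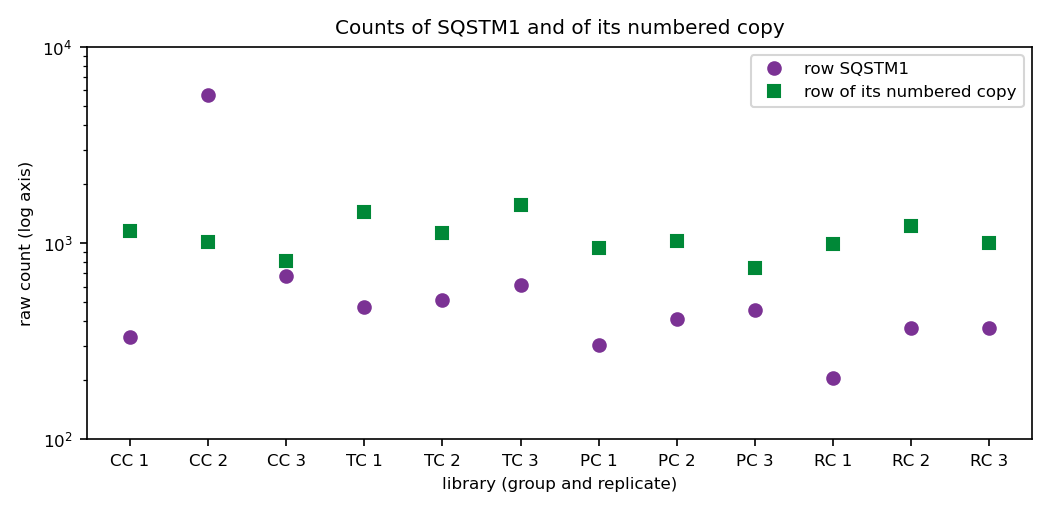
Raw counts of SQSTM1 and of the row listed as its numbered copy in each library, on a log axis. SQSTM1 reaches 5666 counts in CC replicate 2 and at most 677 in any other library, whereas its copy stays between 748 and 1560.

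Of the transcription factors, TFEB drives lysosome and autophagy genes and is held in the cytoplasm when nutrients are plentiful. TFEB was at 6.69, 7.5 and 6.86 CPM in the 3 CC libraries, 10.4, 10.0 and 9.12 in TC, 6.91, 7.02 and 6.13 in PC, with RC at 5.93, 6.76 and 6.56. The TC libraries were above all others, and PC and RC overlapped with CC. The log2 fold change was 0.49 ± 0.11 (adjusted p = 0.0016) in TC and -0.07 ± 0.11 (adjusted p = 0.59) in PC, and TFEB fell by 0.56 ± 0.11 (adjusted p = 0.0028) from TC to PC. The level of MITF, which is no member, was 362 ± 98.9 CPM in CC, 321 ± 85.4 in TC, 221 ± 70.9 in PC and 348 ± 12.9 in RC (mean ± SD, n = 3). MITF had a log2 fold change against CC of -0.17 ± 0.25 (adjusted p = 0.56) in TC and -0.71 ± 0.25 (adjusted p = 0.023) in PC, and rose by 0.66 ± 0.25 (adjusted p = 0.034) from PC to RC.

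The remaining 4 members could not be assessed from their own rows. CTSO (cathepsin O), GAA (acid alpha-glucosidase), NEU1 (neuraminidase) and TFE3 had at most 6 counts in any library. At the smallest library 3 counts correspond to 0.0794 CPM, a limit that covers counting error only. For CTSO and NEU1 the table lists numbered copies, which held 0 to 319 and 1 to 32 counts in sum, and for CTSB a copy with 3008 to 6513 counts. How reads were divided between a gene and such copies was not stated, so their levels are uncertain, and absent RNA and reads not assigned to the gene cannot be told apart. With its copy added, CTSB had log2 fold changes of 0.14 in TC, -0.30 in PC and -0.57 in RC, each within 1 SE of the value without it. NEU1 with its copies reached the filter and was called higher in TC (1.90, adjusted p = 0.012) and PC (1.58, adjusted p = 0.032), from few counts. CTSO with its copy was called higher in PC (2.91, adjusted p = 0.046), where the copy held 24, 319 and 33 counts in the 3 libraries.

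After 2 days without drug, most of these differences from control were still present. In PC, 20 members were higher than in CC, beside 33.2% of all tested genes, and 9 were lower, beside 35.9%. Beyond 1.5-fold, 10 were higher and 3 lower, beside 17.2% and 19.9% of all. The median log2 fold change was 0.45 over the members and -0.04 over all tested genes. The 10 that rose were CTSA, CTSD, CTSF, NAGLU, IDS, ARSA, ARSB, PSAP, GABARAPL1 and ULK1, and the 3 that fell were NPC1, CTSL and SQSTM1. The fall of SQSTM1 rests on CC replicate 2, without which its log2 fold change was -0.30 (adjusted p = 0.25). TC and PC were set against the same CC libraries, so agreement between these lists is not independent.

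Between the end of treatment and 2 days later, the members moved downwards. In PC, 15 of 35 were lower than in TC, beside 12.5% of all tested genes, and 1 was higher, beside 12.2%. The median log2 fold change was -0.23 over the members and 0.0023 over all tested genes. After PSAP, the largest falls were those of CTSA, CTSL, GABARAPL1 and TFEB, with log2 fold changes of -0.59, -0.57, -0.57 and -0.56. CTSD and ARSB had overlapping libraries and log2 fold changes of 0.15 ± 0.11 (adjusted p = 0.35) and -0.01 ± 0.07 (adjusted p = 0.95). Leaving out single libraries moved the 15 to between 10 and 17, and of the 16 calls 6 were lost in at least 1 alternative.

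After 9 days without drug, the members other than ARSB were not called above the control. In RC, 1 member was higher than in CC, beside 18.2% of all tested genes, and 15 were lower, beside 19.1%. The higher member was ARSB. The lower ones, SQSTM1 aside, ranged from CTSF at -0.83, WIPI1 at -0.67, GLB1 at -0.62 and HEXA at -0.62 to CTSA at -0.29 on the log2 scale. No member passed the 1.5-fold limit in edgeR, beside 1.35% of all genes higher and 2.52% lower, and none did in DESeq2. At an unadjusted p under 0.05 for that limit, 0 members were higher and 2 lower. The median log2 fold change was -0.14 over the members and 0.0037 over all tested genes. Without the 1.5-fold limit, the count of members called higher was 4 in DESeq2 and with library totals. In edgeR's test without that limit, IDS, NAGLU and UVRAG missed an adjusted p under 0.05 by little (adjusted p = 0.053, 0.056 and 0.060).

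From PC to RC the members that had been high came down. In this comparison 25 of 35 members fell, beside 34.2% of all tested genes, and 6 rose, beside 35.7%. The median log2 fold change was -0.56 over the members and 0.015 over all tested genes. CTSD fell by 2.70 on the log2 scale, CTSF by 2.11, GABARAPL1 by 1.71, ARSA by 1.58 and ARSB by 1.38. NPC1, CTSL, GLA, UVRAG, GUSB and NPC2 were the 6 that rose, from 0.27 for NPC2 to 1.48 for NPC1. The rise of NPC2 lost its call without PC replicate 3 or any 1 of the RC libraries, with an adjusted p of up to 0.13. This comparison shares no library with that of TC against CC. Of the 22 members higher in TC than in CC, 20 were lower in RC than in PC, which is 90.9% of the former and 80% of the latter list. Over all tested genes the same shares were 79.7% and 77.4%, so the share of the members is to be read against a table in which most such genes came down.

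Per length of annotated exons, PSAP was the most abundant member in every group. In CC it was at 703 ± 56.3 CPM per kb, followed by LAMP1 at 71.1 ± 4.76, CTSD at 50.1 ± 2.82, CTSB at 48.5 ± 3.19, LAMP2 at 42.7 ± 3.73 and NPC2 at 41.7 ± 5.33 CPM per kb (mean ± SD, n = 3). The levels of CTSD and CTSB per kb overlapped in CC, and so did those of LAMP2 and NPC2. In TC, PSAP was at 2723 ± 291 and CTSD at 291 ± 48 CPM per kb, before LAMP1 at 112 ± 12.7, CTSA at 92.4 ± 1.73 and CTSF at 77.7 ± 4.77 CPM per kb. These lengths join all exons of a gene in GENCODE v44, so a gene with long rare exons is placed too low.

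Other genes of the same pathways, 201 in 8 lists, of which 189 were tested, also included more that rose than fell in TC. These lists were chosen with earlier results of these data known, so they are no independent check of the members. In TC, 96 (50.8%) were higher and 39 (20.6%) lower than in CC, beside 33.2% and 34.7% of all tested genes, and their log2 fold changes had a median of 0.27. In PC, 85 (45%) were higher and 53 (28%) lower than in CC, beside 33.2% and 35.9% of all. In RC, 25 (13.2%) were higher and 46 (24.3%) lower than in CC, beside 18.2% and 19.1% of all. From PC to RC 47 (24.9%) rose and 88 (46.6%) fell, beside 35.7% and 34.2% of all. Of 36 other hydrolases and cofactors, 18 (50%) were higher and 10 (27.8%) lower in TC. Among them IDUA, the iduronidase that works beside IDS, went from 4.43 ± 0.431 CPM in CC to 22.7 ± 2.05 in TC (log2 fold change 2.36). SMPD1, the acid sphingomyelinase, went from 53.6 ± 11 to 251.3 ± 14.1 CPM (log2 fold change 2.23). The cysteine proteases LGMN and CTSV fell, as CTSL did, with log2 fold changes of -1.47 and -1.29.

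Of 27 other membrane proteins, 18 (66.7%) were higher and 5 (18.5%) lower in TC, beside 33.2% and 34.7% of all tested genes. CD68, a heavily glycosylated relative of the LAMP proteins, rose from 154 ± 24 to 881 ± 174 CPM, and MFSD12, a cysteine importer of lysosomes and melanosomes, from 354 ± 44.3 to 1433 ± 26.7 CPM. The cation channel gene TPCN1 and LITAF fell (-1.24 and -1.01 on the log2 scale). Of 20 tested subunits and assembly factors of the proton pump, which acidifies the lysosome, 12 (60%) were higher and 2 (10%) lower. ATP6V0E1 and ATP6V0D1 led the rises (log2 fold changes 1.55 and 1.09). Of 17 genes that sort hydrolases to the lysosome, 6 (35.3%) were higher and 7 (41.2%) lower, near the shares over all tested genes. GGA2, an adaptor of that route, had a log2 fold change of 1.17, GNPTG, which encodes a subunit of the enzyme that makes the mannose-phosphate tag, one of 0.98, and the sorting receptor SORL1 one of -1.98.

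Among 32 other genes of autophagosome formation, 13 (40.6%) were higher and 3 (9.38%) lower in TC, beside 33.2% and 34.7% of all tested genes. GABARAP, a close relative of GABARAPL1, rose from 181 ± 17.7 to 494 ± 16.4 CPM, and NRBF2, a subunit of the lipid kinase complex, had a log2 fold change of 1.33. Of 15 cargo receptors, 5 (33.3%) were higher, near the share over all tested genes, and 7 (46.7%) were lower. NCOA4, the ferritin receptor, had a log2 fold change of 1.70 and BNIP3L, a receptor for mitochondria, one of 1.30, whereas CALCOCO2 fell by 0.89 on that scale. TOLLIP, with a log2 fold change of -2.95, had 1.18, 13.6 and 5.10 CPM in the CC libraries and lost its call without CC replicate 2 or TC replicate 2. Of 13 genes of autophagosome fusion 7 (53.8%) were higher and 0 lower. Among those higher were the HOPS tethering subunits VPS39 and VPS41 (log2 fold changes 1.10 and 0.93). Of 29 genes of nutrient sensing and MiT/TFE control, 17 (58.6%) were higher and 5 (17.2%) lower. FNIP2, a partner of folliculin, and LAMTOR1, which anchors the Ragulator complex, rose (log2 fold changes 1.53 and 0.98), and the mTOR inhibitor DEPTOR fell by 1.09 on that scale.

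**Figure D5:**
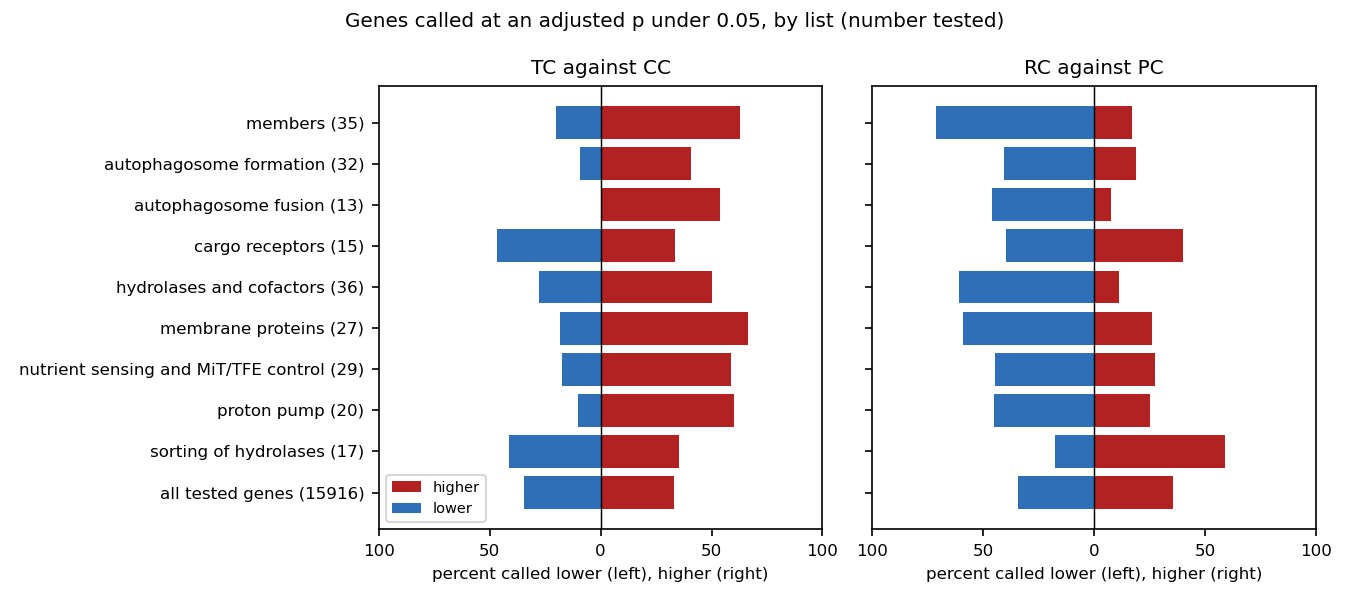
Percent of the tested genes of each list that were called lower (bars to the left) or higher (bars to the right) at an adjusted p under 0.05, in TC against CC and in RC against PC, with the number tested in brackets. The members have the longest bar to the right after the membrane proteins in TC against CC and the longest bar to the left in RC against PC.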

How the data were processed

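Per the submitters' processing notes, the tools used were fastp 0.20.1, HISAT2 2.2.1 and HTSeq 0.13.5 with the genome GRCh38.p13. The deposited file holds whole-number read counts for each gene that the authors did not normalize. Strand setting and the treatment of reads with several matches are not given in the sources used here. Members, role groups and lists of other pathway genes were chosen with earlier results of these data known. Counts were scaled by TMM factors, genes with a mean scaled count of at least 10 were kept, and 1 edgeR 4.0.16 quasi-likelihood model (R 4.3.3, limma 3.58.1) of the 4 groups over 12 libraries gave 5 comparisons with Benjamini-Hochberg adjusted p-values. A change beyond 1.5-fold was tested with glmTreat. The SE was computed from the F statistic and the log2 fold change that edgeR reported. The scripts were tested on simulated data, and no 2 libraries were duplicates. Alternatives were DESeq2 1.42.0, other scalings, a lower filter, only the 2 groups compared, a replicate block, each library left out and, chosen after seeing the data, numbered copies added to their gene. Members beyond 1.5-fold against CC are given with every library, the other members by fold change or count. Of each other list, up to 2 genes with the largest rise and up to 2 with the largest fall in TC were named, among those beyond 1.5-fold with a mean scaled count of at least 100. Coordinates and exon lengths are from GENCODE v44 (hg38), promoters from RefSeq GRCh38.p14. Python 3.11.15, pandas 2.3.3 and matplotlib 3.10.9 were used for the other steps.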

Additional observations from a re-analysis of the deposited data

How the results depend on the processing

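Of 589 values of counts and medians under 19 other settings, 535 stayed within a tolerance, 54 lay outside it and 0 reversed. The tolerance was 1.5 times the value for a count and 1 SD of the member median over replicates for a median. Where a value lay outside and no cause is given, the cause was not tested. The median log2 fold change of the members in PC against CC, 0.45, was 0.47 in DESeq2, with DESeq2 size factors in edgeR and with numbered copies added, 0.51 when genes were kept from a sum of 2 counts upwards (the lower filter), and 0.40 to 0.46 with single libraries left out. In PC against TC, -0.23 became -0.21 with library totals and -0.25 to -0.20 without single libraries. In RC against CC, -0.14 became -0.11 with library totals, -0.12 with the lower filter and -0.18 to -0.13 without single libraries. In TC against CC, 0.58 became 0.68 with the lower filter and 0.66 with copies added. The lower filter admits the members with few counts, so its medians are over more genes.

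The 1 member higher in PC than in TC became 0 with the lower filter and 0 to 1 without single libraries. The 1 member higher in RC than in CC became 4 in DESeq2 and with library totals, 3 with DESeq2 size factors and 1 to 3 without single libraries. The 0 members lower beyond 1.5-fold in RC became 1 with the lower filter and 0 to 1 without single libraries, and the 1 in TC became 1 to 2. Of the other pathway genes, the 11 higher in PC than in TC became 7 with the lower filter, 17 with only the 2 groups fitted and 5 to 16 without single libraries. The 55 that were lower became 33 to 63 without single libraries, and the 25 higher in RC than in CC became 16 with only the 2 groups fitted. SQSTM1 in TC reversed to 0.12 without CC replicate 2, within a range from -2.54 to 0.12 without single libraries. In every setting, 27 of 29 member calls were kept in TC against CC, 28 of 29 in PC against CC, 15 of 16 in RC against CC, 29 of 31 in RC against PC and 10 of 16 in PC against TC.

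Libraries with the same replicate number deviated together weakly at most, with r from -0.05 to 0.20 and 2 of 15 pairs over 0.1. In PC against TC the same-numbered r were 0.20, 0.06 and 0.18, whereas those of differing numbers lay between -0.17 and -0.003. In RC against PC the same-numbered r were 0.006, -0.05 and 0.01, and the others reached 0.05. In TC against CC the same-numbered r were 0.04, 0.05 and 0.09, and the others lay between -0.07 and 0.03. Deviations were taken from the group mean, so r of differing numbers tend below 0 where same-numbered r lie above it. A pairing of libraries, most plainly of PC with TC, can therefore not be excluded, and the main model did not use the numbers. With a replicate block the members were 22 higher and 6 lower in TC, 2 were higher in RC, and 1 was lower beyond 1.5-fold in RC. Members with at most 6 counts in their own row cannot be assessed from that row at this depth.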
